A study of Mus musculus with 18 samples.

Results

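The genes described here are 10 immediate-early genes: Egr1, Egr2, Egr3 and Egr4 of the Egr family, Nr4a1, Nr4a2 and Nr4a3 of the Nr4a family, and Ier2, Ier3 and Dusp1. They were chosen by symbol and were found in all 18 files, 10 of the 45151 symbols that both kinds of file hold. RNA-seq libraries were made from 6 samples of inguinal white adipocytes (iWAT), 6 of epididymal white adipocytes (eWAT) and 6 of brown adipose tissue (BAT). All samples came from wild-type male C57BL/6J mice on regular chow at 16 weeks of age, and no agent or transgene is named for any of them. For the white depots, minced fat had been digested with collagenase at 37 °C and the cells that float were taken. BAT had been frozen as whole tissue instead. A BAT sample therefore holds every cell type of that tissue, and one label of the BAT samples names adipocytes while another names tissue. White fat against BAT is thus also digested against undigested material, and these cannot be told apart. Values are RPKM, the reads of a row scaled to its length and to the total of reads of the sample. The iWAT and BAT files give 1 row per gene over all its exons. The eWAT files give 1 row per transcript, and for each gene the transcript with the most reads was taken. As this follows the depot, eWAT and its way of counting cannot be told apart. Samples are named by the number in their title, read here as a mouse number, although no label ties it to an animal.

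Immediate-early genes are transcribed soon after a cell receives a signal, without the need for new protein. Growth factors and stress reach them through MAP kinases and the factors Srf and Elk1, and cAMP reaches them through protein kinase A and Creb1. Their mRNAs are short-lived, so that a pulse of transcription passes quickly. The Egr genes encode zinc finger transcription factors, and Egr2 is known as an early factor of adipocyte differentiation. The Nr4a genes encode orphan nuclear receptors and are known to respond to β-adrenergic stimulation in fat. Dusp1 encodes a phosphatase that removes phosphate from MAP kinases and so limits the signal. Enzymatic digestion of a tissue is known to induce many immediate-early genes.

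The total of reads behind the RPKM values was between 22929576 and 34512470 per sample. Labels were checked with marker genes. Ucp1 lay between 969 and 1509 RPKM in the BAT samples and did not exceed 5.76 RPKM in any white sample, and 7 of 7 adipocyte markers were above 1 RPKM on average in each depot. Some libraries held RNA of other tissues. The summed RPKM of 5 skeletal muscle markers reached 1340 in BAT mouse 12, against a median of 26.2 over the BAT samples. The sum of 7 macrophage markers lay between 28.2 and 147 in iWAT, between 145 and 2049 in eWAT, where mouse 15 was highest, and between 21.4 and 49.5 in BAT samples. The sum of 5 epididymis markers reached 76.9 in eWAT mouse 14 and 69.0 in eWAT mouse 15. Sums of 7 endothelial markers were 57.4 to 321 (iWAT), 150 to 339 (eWAT) and 53.1 to 131 (BAT), those of 7 stromal markers 55.3 to 99.3, 72.2 to 178 and 33.3 to 45.6, and those of 6 mural cell markers 36.2 to 118, 104 to 202 and 75.8 to 120. The 5 mesothelial markers summed to 3.64 to 4.59, 15.1 to 31.0 and 11.1 to 13.4, and 6 lymphocyte markers to at most 1.26 in any sample. In iWAT and BAT only 1 mesothelial marker, Lrrn4, reached a mean of 1 RPKM (4.13 and 12.7), against 3 of the 5 in eWAT.

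Upstream sequences were read from a RefSeq table of promoters (build GRCm38.p6) for those of the 10 genes it holds, which are Egr2, Egr4, Nr4a1, Nr4a2, Nr4a3, Ier3 and Dusp1 (7 genes, 11 start sites, of which the 5 of Egr2 partly overlap). Of each start site the 250 bases before it were searched on both strands. The 4 sequences printed here show the range of what was found: a CArG box (the element bound by Srf), cAMP response half-sites (TGACG), a full cAMP response element (TGACGTCA), and none of these. Capitals mark these elements on either strand.
Egr2, chr10:67537619-67537868, plus strand: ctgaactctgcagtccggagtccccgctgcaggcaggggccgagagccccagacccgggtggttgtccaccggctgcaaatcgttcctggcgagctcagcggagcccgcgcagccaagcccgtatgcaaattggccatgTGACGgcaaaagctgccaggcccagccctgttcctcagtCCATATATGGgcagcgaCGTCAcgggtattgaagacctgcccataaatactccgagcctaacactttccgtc
Nr4a1, chr15:101266596-101266845, plus strand: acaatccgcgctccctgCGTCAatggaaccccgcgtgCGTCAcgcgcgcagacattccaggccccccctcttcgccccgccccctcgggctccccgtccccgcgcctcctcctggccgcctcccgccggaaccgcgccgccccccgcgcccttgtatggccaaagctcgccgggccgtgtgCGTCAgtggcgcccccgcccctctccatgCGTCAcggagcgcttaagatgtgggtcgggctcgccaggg
Dusp1, chr17:26508473-26508722, minus strand: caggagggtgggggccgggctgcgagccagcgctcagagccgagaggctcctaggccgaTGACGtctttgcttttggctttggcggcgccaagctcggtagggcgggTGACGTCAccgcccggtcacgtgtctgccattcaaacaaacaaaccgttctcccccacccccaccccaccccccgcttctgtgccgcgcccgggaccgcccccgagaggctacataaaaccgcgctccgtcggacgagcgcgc
Ier3, chr17:35821463-35821712, plus strand: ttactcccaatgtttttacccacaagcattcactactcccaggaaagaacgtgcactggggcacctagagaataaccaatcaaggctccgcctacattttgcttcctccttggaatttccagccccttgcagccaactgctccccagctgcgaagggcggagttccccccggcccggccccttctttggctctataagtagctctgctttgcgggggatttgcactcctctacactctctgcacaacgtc
The half-site TGACG was found upstream of 6 of the 7 genes, all but Ier3, and 17.8% of all 32851 windows of this length hold one. Nr4a1, Nr4a2 and Nr4a3 had 4 each, Dusp1 had 3, and Egr4 had 2. Egr2 had 2 at the start site shown. Among these 7 genes the full element was found in Dusp1 only, where it accounts for 2 of the 3 half-sites. It is in 1.55% of all windows. A CArG box was found, of the 7 genes searched, in Egr2 only, 72 bases before the start site shown. It is in 1.47% of all windows. Of 3 further elements searched, the Egr consensus (GCGNGGGCG) was found in Nr4a1 and Nr4a2 (4.70% of all windows), TATAAA in Nr4a2 (12.4%) and the Nr4a element AAAGGTCA in none of the 7 genes (1.34%). These are matches of letters in a short window and not known binding sites in these cells.

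The genes spanned a wide range of levels within each depot. In iWAT, Egr1 had by far the highest level, with a mean of 548 ± 117 RPKM (SD, n = 6), which is rank 47 of the 45151 symbols. It stood above Ier2, Dusp1, Ier3, Egr2 and Nr4a1, whose means lay between 138 and 63.7 RPKM and whose ranges overlapped from each to the next. Nr4a2, Nr4a3 and Egr3 had means between 2.95 and 2.46 RPKM and overlapped likewise, and Egr4 was lowest at 0.910 ± 0.341 RPKM. In eWAT, Egr1 was again first, at 368 ± 101 RPKM (rank 87), although its lowest sample reached into the range of Dusp1. The order in BAT was another one. Dusp1 had the highest mean (19.7 ± 9.77 RPKM), followed by Nr4a1 (17.2 ± 19.0 RPKM) and then Egr1 (8.05 ± 8.67 RPKM, rank 3147), and all neighbours down to Egr3 overlapped in range.

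**Figure D1:**
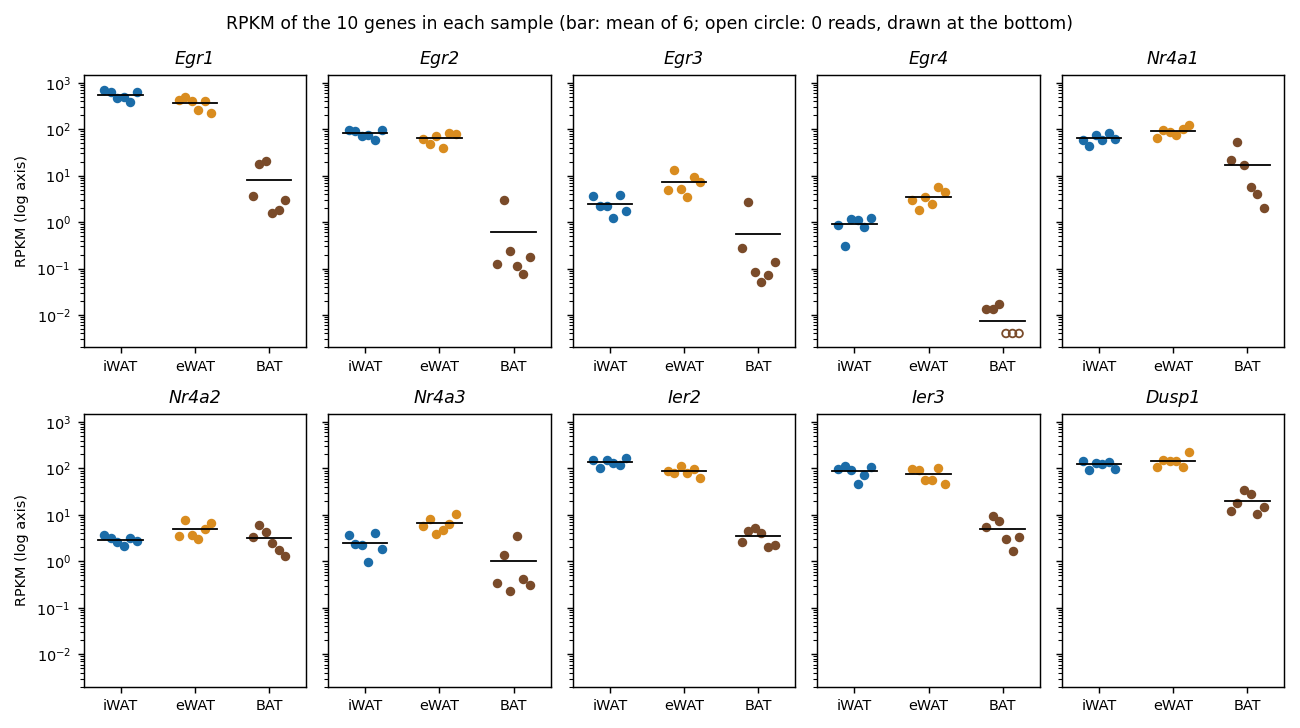
RPKM (log axis) of each of the 10 genes in the 6 iWAT, 6 eWAT and 6 BAT samples. Each point is a sample, the bar is the mean of 6, and open circles are BAT samples with 0 reads of Egr4; the BAT points of Egr1, Egr2, Egr4, Ier2, Ier3 and Dusp1 all lie below those of both white depots, whereas those of Nr4a2 overlap with them.

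Egr1 (chromosome 18 of mm9, 35020861 to 35024638, plus strand, 2 exons) is the most studied gene of its family. Its RPKM ranged from 385 to 694 in iWAT (median 553), from 224 to 487 in eWAT (median 405) and from 1.53 to 20.3 in BAT (median 3.29). The white samples lay wholly above BAT, and within BAT the samples of mice 7 (18.1) and 8 (20.3) stood above the 4 others, which did not exceed 3.59. Differences were tested with edgeR's quasi-likelihood test on read counts, with Benjamini-Hochberg adjustment over all genes and a threshold of 0.05. Egr1 was 55.6-fold higher in iWAT than in BAT (a log2 fold change of 5.80, SE 0.72, edgeR adjusted p = 6.90e-06) and 35.2-fold higher in eWAT than in BAT (5.14, SE 0.63, edgeR adjusted p = 7.48e-07).

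Egr2 (chromosome 10, 66998223 to 67004936, plus strand) had a lower mean level than Egr1 in each depot. It ranged from 58.9 to 97.2 RPKM in iWAT (median 83.1), from 39.4 to 83.1 in eWAT (median 66.1) and from 0.0758 to 2.95 in BAT (median 0.153). Here 1 BAT sample, mouse 7, held the 2.95, and the 5 others did not exceed 0.242. The fitted difference was 109.5-fold for iWAT over BAT (log2 fold change 6.77, SE 0.84, edgeR adjusted p = 6.63e-06) and 71.0-fold for eWAT over BAT (6.15, SE 0.74, edgeR adjusted p = 6.59e-07). Without BAT mouse 7 these log2 fold changes were 8.81 and 8.20.

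Egr3 (chromosome 14, 70477252 to 70482421, plus strand) and Egr4 (chromosome 6, 85461116 to 85463583, minus strand) were the low members of the family. Egr3 ranged from 1.20 to 3.82 RPKM in iWAT (median 2.19), from 3.44 to 13.1 in eWAT (median 6.22) and from 0.0522 to 2.70 in BAT (median 0.112). The 2.70 was again BAT mouse 7, which lay within the iWAT range, and the 5 others did not exceed 0.284. Egr3 was 8.95-fold higher in eWAT than in BAT (log2 3.16, SE 0.76, edgeR adjusted p = 0.00115), and the log2 value was 5.23 without BAT mouse 7. Between iWAT and BAT its log2 fold change was 1.88 (SE 0.80), which just missed the threshold (edgeR adjusted p = 0.05005). It passed without BAT mouse 7 (3.94, edgeR adjusted p = 6.80e-06) and without iWAT mouse 13 (2.03, edgeR adjusted p = 0.0479). Egr3 also passed with all 18 samples fitted (1.83, edgeR adjusted p = 0.0361), without TMM factors (2.12, edgeR adjusted p = 0.0295) and without a filter (1.94, edgeR adjusted p = 0.0386). Both limma fits and the fit with the title number as a block called it too, and 14 of 22 alternatives left it uncalled. Egr4 ranged from 0.309 to 1.21 RPKM in iWAT (17 to 80 reads) and from 1.85 to 5.80 in eWAT (135 to 330 reads). In BAT 3 samples had 0 reads and 3 had 1 read. Summed over samples and scaled to depth, Egr4 reads were 122 times as frequent in iWAT as in BAT (exact 95% interval 41.4 to 596) and 455 times as frequent in eWAT (156 to 2211), intervals that cover counting error only. Egr4 passed the filter of 10 reads in 6 samples through white adipocytes alone, and Egr2 and Egr3 reached 10 reads in 5 of the 6 BAT samples, so that their calls against BAT are in part set by the filter.

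As shares of the RPKM summed over the family, Egr1 made up 85.8% to 87.3% in the iWAT samples, 71.7% to 88.6% in eWAT and 76.1% to 98.3% in BAT. Egr2 was second in every iWAT and eWAT sample with 12.1% to 13.4% and 8.68% to 24.6%. In BAT the share of Egr2 was between 1.18% and 12.4%.

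The Nr4a genes differed less between white fat and BAT than Egr1 and Egr2. Nr4a1 (chromosome 15, 101097277 to 101105226, plus strand, 7 exons) is the only one of the 10 genes with an identical row in both kinds of file. It ranged from 44.0 to 83.5 RPKM in iWAT (median 60.7), from 63.1 to 124 in eWAT (median 93.2) and from 2.06 to 52.4 in BAT (median 11.3). The highest BAT sample, mouse 7, lay above the lowest iWAT sample and below every eWAT sample. Nr4a1 was 4.17-fold higher in eWAT than in BAT (log2 2.06, SE 0.55, edgeR adjusted p = 0.00255). It was 3.06-fold higher in iWAT than in BAT (1.61, SE 0.60, edgeR adjusted p = 0.0292), a call that was lost without BAT mouse 8 (1.61, edgeR adjusted p = 0.0511), without BAT mouse 11 (1.38, edgeR adjusted p = 0.0625) and without BAT mouse 12 (1.38, edgeR adjusted p = 0.0539), the sample with muscle RNA. Without BAT mouse 7 its log2 values were 2.30 for iWAT and 2.76 for eWAT.

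Nr4a2 (chromosome 2, 56959241 to 56976552, minus strand) was the member for which no difference from BAT was called. It ranged from 2.12 to 3.76 RPKM in iWAT (median 2.96), from 2.96 to 7.87 in eWAT (median 4.39) and from 1.28 to 6.08 in BAT (median 2.90). All 3 ranges overlapped. The log2 fold change was -0.38 for iWAT over BAT (SE 0.32, edgeR adjusted p = 0.302) and -0.05 for eWAT over BAT (SE 0.32, edgeR adjusted p = 0.905). The eWAT row of Nr4a2 spans 78.0% of the length of the merged row, which gives a higher RPKM for the same reads, and on RPKM eWAT was 1.57 times BAT. With limma on log2(RPKM + 0.1) the difference was 0.73 (adjusted p = 0.0355), but on this scale, which has no TMM factors, the median of all genes was 0.71 as well. The value for iWAT over BAT lay between -0.57 and 0.06 under the alternatives tried and was never called. The gene D030020J04Rik on the same strand lies within its span, with 0 to 41 reads per sample.

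Nr4a3 (chromosome 4, 48058025 to 48099319, plus strand) ranged from 0.967 to 4.06 RPKM in iWAT (median 2.30), from 3.90 to 10.6 in eWAT (median 6.01) and from 0.231 to 3.56 in BAT (median 0.382). Every eWAT sample lay above every BAT sample, and the iWAT range overlapped with BAT through BAT mouse 11, which held the 3.56, and mouse 7 (1.37). Nr4a3 was 5.06-fold higher in eWAT than in BAT (log2 2.34, SE 0.56, edgeR adjusted p = 0.00112), with a log2 value of 3.19 without BAT mouse 11. Between iWAT and BAT it was not called (1.09, SE 0.60, edgeR adjusted p = 0.118), but it was without BAT mouse 11 (1.94, edgeR adjusted p = 0.00300). Within the family, Nr4a1 made up 88.6% to 95.0% of the summed RPKM in iWAT, 85.9% to 92.0% in eWAT and 48.2% to 87.5% in BAT.

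Ier2 (chromosome 8, 87183450 to 87186751, minus strand, 1 exon), which encodes a nuclear protein, had the lowest coefficient of variation of the 10 genes in eWAT (19.8%) and in BAT (38.3%). It ranged from 103 to 168 RPKM in iWAT (median 141), from 63.0 to 114 in eWAT (median 84.3) and from 2.02 to 5.14 in BAT (median 3.29). The BAT samples lay far below all white samples. Ier2 was 33.2-fold higher in iWAT than in BAT (log2 5.05, SE 0.26, edgeR adjusted p = 9.67e-10) and also higher in eWAT than in BAT (4.32, SE 0.24, edgeR adjusted p = 1.50e-11). The level of Ier2 depends on the row used. In eWAT 99.3% of the reads of the 3298-base transcript also fall on a RefSeq transcript of 1522 bases, on which its RPKM was 2.15 times as high.

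Ier3 (chromosome 17, 35958629 to 35959861, plus strand, 2 exons) encodes a stress-inducible protein that modulates cell survival. It ranged from 45.8 to 112 RPKM in iWAT (median 95.9), from 45.4 to 105 in eWAT (median 74.8) and from 1.69 to 9.45 in BAT (median 4.40). The white depots covered almost the same range and lay wholly above BAT. Ier3 was 14.3-fold higher in iWAT than in BAT (log2 3.84, SE 0.38, edgeR adjusted p = 7.20e-07) and 11.7-fold higher in eWAT than in BAT (3.55, SE 0.38, edgeR adjusted p = 1.27e-07). Dusp1 (chromosome 17, 26642535 to 26645464, minus strand) had the highest level of the 10 genes in BAT. It ranged from 94.3 to 146 RPKM in iWAT (median 128), from 106 to 226 in eWAT (median 146) and from 10.2 to 35.1 in BAT (median 16.4). All white samples of Dusp1 lay above all BAT samples, and the white depots overlapped each other. Dusp1 was 5.17-fold higher in iWAT than in BAT (2.37, SE 0.28, edgeR adjusted p = 4.59e-06) and 5.11-fold higher in eWAT than in BAT (2.35, SE 0.28, edgeR adjusted p = 5.50e-07).

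In all, 7 of the 10 genes were called higher in iWAT than in BAT and 0 lower, where 34.0% of the 19733 genes tested were called higher and 33.6% lower. In 6 of the 10 every iWAT sample lay above every BAT sample in RPKM, as in 31.6% of all genes tested. In eWAT against BAT, 9 of the 10 genes were called higher and 0 lower, against 35.6% and 34.7% of the 18383 genes tested. In 9 every eWAT sample lay above every BAT sample, as in 50.3% of all. Of the 7 genes that reached 10 reads in every BAT sample, 5 were called higher in iWAT and 6 in eWAT. The share among all genes that reached this was not taken, and the 34.0% and 35.6% are over a wider set. TMM scaling lowers the white values relative to BAT. Without it the median log2 fold change of all genes moved up by 0.26 (iWAT) and 0.33 (eWAT), the calls in the higher direction went from 50.3% to 65.8% and from 50.6% to 66.3% of all calls, and the called genes were 8 and 9 of the 10. The 2 comparisons share the BAT samples and are not independent of each other. They also rest on unlike fits. With all 18 samples fitted, as for eWAT, 8 of the 10 genes were called between iWAT and BAT.

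**Figure D2:**
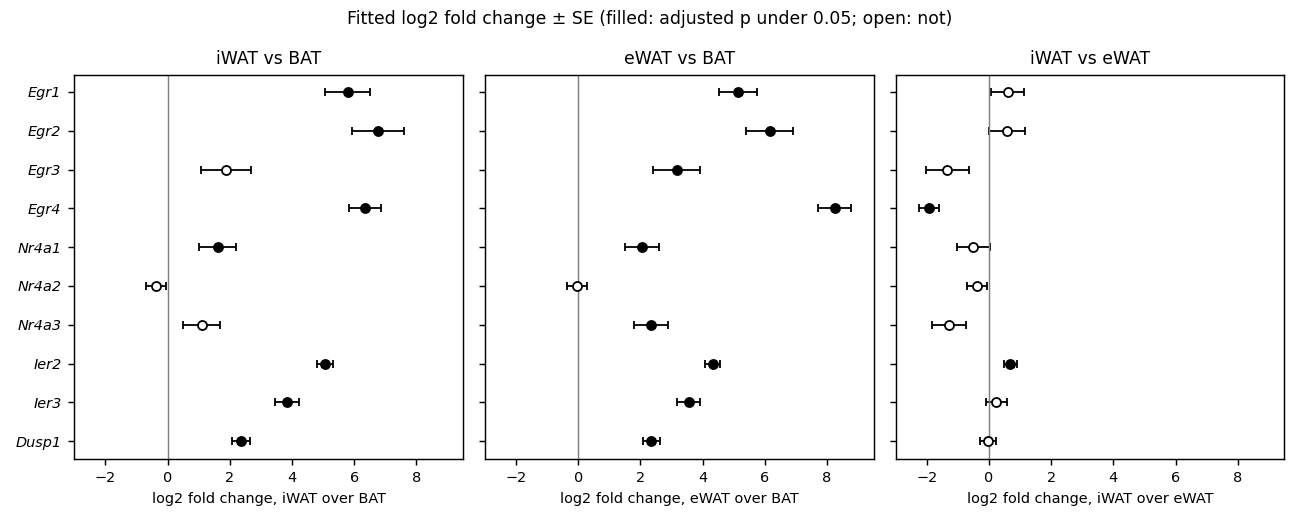
Fitted log2 fold change with its SE (bars) for the 10 genes in 3 comparisons, with iWAT or eWAT over BAT and iWAT over eWAT on the x axes. Filled points passed an adjusted p of 0.05: 7 genes in iWAT over BAT, 9 in eWAT over BAT, and Egr4 and Ier2 in iWAT over eWAT, and the fitted value of Egr4 against BAT depends on the prior count used for samples with 0 reads.

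Between the 2 white depots 2 of the 10 genes were called. Ier2 was 1.61-fold higher in iWAT than in eWAT (log2 0.68, SE 0.21, edgeR adjusted p = 0.0222), and Egr4 was 3.81-fold lower (-1.93, SE 0.32, edgeR adjusted p = 0.000260), where 13.4% of all genes tested were called higher and 12.3% lower. Every iWAT sample lay below every eWAT sample in Egr4 alone of the 10 genes, as in 30.4% of all genes. The Ier2 call was lost without iWAT mouse 15 (0.62, edgeR adjusted p = 0.0525) and with the eWAT transcript of highest RPKM (0.25, edgeR adjusted p = 0.323). The 8 other genes were not called. Egr1 and Egr2 had log2 fold changes of 0.61 (SE 0.53) and 0.57 (SE 0.58), Nr4a1 had -0.50 (SE 0.53), Dusp1 -0.03 (SE 0.27) and Ier3 0.24 (SE 0.34). Egr3 (-1.33, SE 0.70, edgeR adjusted p = 0.174) and Nr4a3 (-1.29, SE 0.54, edgeR adjusted p = 0.0867) came nearest to a call. As all 18 samples share 1 estimate of the spread, each was called once its high BAT sample was left out, Egr3 without BAT mouse 7 (-1.33, edgeR adjusted p = 0.0145) and Nr4a3 without BAT mouse 11 (-1.29, edgeR adjusted p = 0.0261). The eWAT samples also held more macrophage RNA. Of 7 macrophage markers, 6 were lower in iWAT than in eWAT, 4 were higher in iWAT than in BAT, and 7 were higher in eWAT than in BAT. None of the 7 was at 0 as a group mean. Their part in the values of the 10 genes was not tested. eWAT mouse 15 had a macrophage sum of 2049, an epididymis sum of 69.0 and the lowest adipocyte marker sum of the eWAT samples (9252). In this sample Nr4a1, Nr4a3 and Dusp1 were at their highest and Egr1, Ier2 and Ier3 at their lowest of the 6 eWAT samples. Leaving out eWAT mice 14 and 15 and BAT mouse 12 together, a choice made after seeing the data, gave 6, 9 and 2 called genes, with Nr4a1 lost between iWAT and BAT.

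The genes varied more between BAT samples than between white samples, Egr4 aside. The highest BAT sample exceeded the lowest 51.8 times for Egr3, 38.9 times for Egr2, 25.5 times for Nr4a1, 15.4 times for Nr4a3 and 13.2 times for Egr1, but 2.54 times for Ier2 and 3.43 times for Dusp1. In iWAT this ratio was between 1.55 (Dusp1) and 4.20 (Nr4a3), and in eWAT between 1.81 (Ier2) and 3.79 (Egr3). In BAT, of the 9 genes other than Egr4, mouse 7 was highest for 5 (Egr2, Egr3, Nr4a1, Nr4a2 and Ier3), mouse 8 for 3 (Egr1, Ier2 and Dusp1) and mouse 11 for Nr4a3. The mean deviation from the depot mean, taken on log2(RPKM + 0.1) over the 7 genes with a mean of at least 1 RPKM in every depot, was 1.14 in mouse 7, 0.66 in mouse 8, -0.84 in mouse 13 and -0.94 in mouse 12. The white samples stayed between -0.39 and 0.30, with mouse 13 lowest in both iWAT (-0.39) and eWAT (-0.31). Over the 45 pairs of genes the median Pearson r across the 6 samples of a depot was 0.62 in BAT (Egr4 included), 0.22 in iWAT and 0.12 in eWAT. In BAT, Nr4a1 and Nr4a2 went together most closely (r = 0.98), and in iWAT Egr3 and Nr4a3 (0.99) and Egr1 and Egr2 (0.98). The same pairs differed between depots. Nr4a1 and Nr4a2 had -0.03 in iWAT and 0.78 in eWAT. Egr3 and Nr4a3 had 0.64 in eWAT and 0.20 in BAT, and Egr1 and Egr2 had 0.008 in eWAT and 0.72 in BAT. These are descriptions over 6 samples that share their depth between genes. In BAT the r of this deviation over 6 samples was 0.88 with the adipocyte marker score, 0.68 with the brown adipocyte score and -0.58 with the stromal score. It was -0.50 with the mesothelial, -0.37 with the skeletal muscle and -0.29 with the macrophage score, and between -0.24 and -0.04 with the others. With the adipocyte score it was -0.51 in iWAT and -0.43 in eWAT. In iWAT the largest r was 0.73, with the epididymis score, although those markers summed to at most 0.157 RPKM there. The part of these cell types in the deviations was not tested. In whole tissue, fewer cells of a type and less RNA per cell cannot be told apart.

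**Figure D3:**
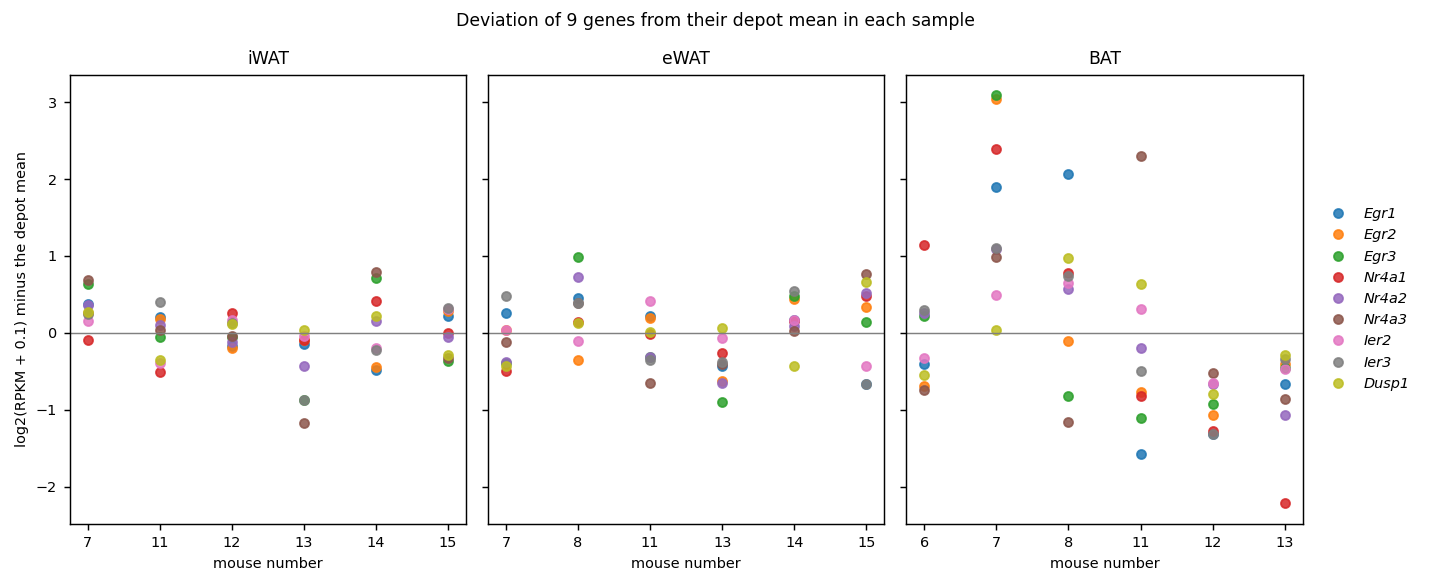
Deviation of log2(RPKM + 0.1) from the depot mean for 9 genes (colours; Egr4 is left out as BAT holds 0 or 1 read) in each sample, by mouse number. The BAT points of mouse 7 are all above 0 and those of mice 12 and 13 are all below 0, and the white depots show a narrower spread.

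Outside the list, the 8 genes whose deviations were most like the mean of those 7 genes, by Pearson r over the 18 samples among 6256 genes, were Dusp6 (0.79), Fos (0.75), Fosb (0.75), Sik1 (0.73), Junb (0.69), Btg3 (0.66), Jun (0.64) and Atf3 (0.61). The median r of all ranked genes was -0.01. Dusp6 encodes a phosphatase specific for ERK, and Sik1 a kinase induced by cAMP. Within BAT alone the r of the 8 genes lay between 0.60 (Atf3) and 0.96 (Dusp6). Within iWAT it lay between 0.05 (Fos) and 0.89 (Atf3), and within eWAT between -0.12 (Jun) and 0.85 (Btg3), where Junb had -0.10. Dusp6 had a mean of 15.3 RPKM in iWAT, 14.6 in eWAT and 12.4 in BAT, whereas Fos had 558, 498 and 1.39 RPKM.

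Other genes of the pathway were taken from 3 lists. Of 41 other early response genes, such as AP-1 subunits and short-lived regulators, 35 were higher in iWAT than in BAT and 2 lower, and 35 were higher and 2 lower in eWAT than in BAT, where 34.0% and 35.6% of all genes tested were higher. Their median log2 fold changes were 3.84 and 3.44, beside 0.01 and 0.03 over all genes tested. Fosb, an AP-1 subunit, had a mean of 303 RPKM in iWAT, 303 in eWAT and 0.329 in BAT. Socs3, a feedback inhibitor of cytokine signals, had 232.5 ± 93.8 RPKM in iWAT and 0.558 ± 0.231 in BAT (log2 8.45, edgeR adjusted p = 2.68e-10). In both comparisons the 2 lower ones were Rgs2, a regulator of G protein signals (-2.48 and -1.96), and Cebpb, an adipogenic factor (-0.79 and -1.17). Between the white depots, 13 of the 41 were higher in iWAT (13.4% of all genes tested were), led by Socs3 (1.24) and Trib1 (1.18), and Ptgs2 was lower. Socs3 and Trib1 were also higher in mean RPKM, but Cebpd, 1 of the 13, was lower in iWAT (27.9) than in eWAT (29.8). The fit has no term for row length. With row length as an offset 10.6% of all calls were higher in iWAT, in place of 52.2%, and the 13 were not counted anew with it.

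The list of 15 corepressors and feedback phosphatases holds Nab1 and Nab2, which bind Egr proteins, and further Dusp, Spry and Spred genes. It had 8 higher and 1 lower (Dusp14) in both comparisons with BAT, with median log2 fold changes of 0.55 and 0.65, where 34.0% and 35.6% of all genes tested were higher and 33.6% and 34.7% lower. Nab1 and Dusp16 were among the 8 called in iWAT, and Nab2 and Spry1 among the 8 called in eWAT. Spry2, an inhibitor of growth factor signals, had 17.6 ± 6.35 RPKM in iWAT and 3.50 ± 0.919 in BAT (log2 fold change 2.06, edgeR adjusted p = 6.95e-06). Dusp5, a nuclear ERK phosphatase, had 13.7 ± 15.6 RPKM in eWAT and 0.224 ± 0.169 in BAT (5.65, edgeR adjusted p = 4.12e-07). Of the 25 upstream kinases and transcription factors, the fit called 10 higher and 4 lower in iWAT than in BAT. It called 9 higher and 5 lower in eWAT than in BAT, and the medians were 0.04 and 0.11. Rps6ka5, 1 of the 4 lower in iWAT, was called on its merged row of highest mean RPKM (-0.64). Its most-read row, however, had a mean of 1.92 RPKM in iWAT and 1.14 in BAT, so that its direction depends on the row used. The shares called higher lie near the 34.0% and 35.6% of all genes tested, and those called lower are below the 33.6% and 34.7% of all, a difference that was not tested. Srf, which binds the CArG box, had a level of 3.50 ± 0.829 RPKM in BAT, against 17.0 ± 2.96 in iWAT and 13.03 ± 1.54 in eWAT (log2 2.02 and 1.58, edgeR adjusted p = 9.63e-09 and 2.56e-09). Rps6ka3, a kinase below ERK that phosphorylates Creb1, was higher in both (2.52 and 2.92). Map2k2, a kinase above ERK, was called lower in both (-0.59 and -0.83). In mean RPKM, however, Map2k2 was higher in eWAT than in BAT. The same held for Crtc1, Elk4, Map2k7 and Rps6ka5, the other genes called lower in eWAT. The fit sets reads of 1 eWAT transcript against those of a merged row, without a term for row length, and RPKM has no TMM factors. The direction of these 5 genes between eWAT and BAT thus depends on the scale used.

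**Figure D4:**
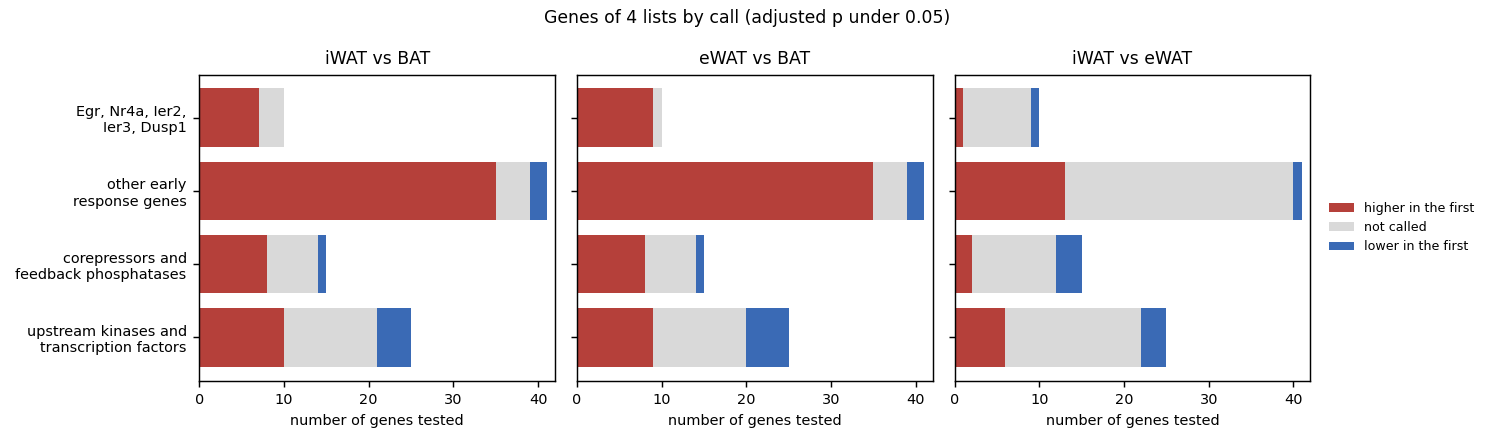
Number of genes (x axis) called higher, lower or not called in each of 3 comparisons, for the 10 genes and for 3 further lists. Of the other early response genes 35 of 41 are called higher than BAT in both white depots, and in the comparison of iWAT with eWAT most genes of every list are not called.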

How the data were processed

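RNA-seq was run on 18 libraries (NEBNext Ultra RNA kit, Illumina HiSeq). The submitters' processing notes name cutadapt 1.16, HISAT2 2.1.0 and the mm9 genome, and the paper the Genomatix Genome Analyzer; the use of strand in counting is not given in the sources used here. The authors deposited a read count per row and an RPKM per row, which equals the count over the row's length and 1 total per sample. Rows are 53445 merged genes (iWAT, BAT) or 189660 transcripts (eWAT).

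The genes and lists were chosen with earlier results of these data known. For each symbol the merged row and the eWAT transcript with the most reads were used. For genes of the lists with several merged rows, calls between iWAT and BAT used the tested row of highest mean RPKM instead. Depots were compared with edgeR 4.0.16 in R 4.3.3 (glmQLFit, glmQLFTest, TMM, the total behind the RPKM as library size), keeping genes that reached 10 reads in 6 or more samples. iWAT and BAT were fitted with 12 samples over all merged rows, and the other comparisons with all 18 samples. The threshold was a Benjamini-Hochberg adjusted p of 0.05. The study states no test for these data. No label says that samples come from separate animals or ties the number in a title to an animal. P-values then measure the spread between these samples, and a fit with this number as a block was an alternative. On simulated counts with known changes the code called 91 of 92 genes changed 4-fold and 74 of 108 changed 2-fold between iWAT and BAT, and 5 of 19533 unchanged ones. For eWAT and BAT these were 98 of 105, 58 of 95 and 7 of 18183, and for iWAT and eWAT 89 of 96, 72 of 104 and 11 of 18183. The simulation took its spread from the same fit and changed few genes, in both directions. It therefore does not test the scaling where most genes differ. Named beside the 10 genes were the called list genes with the 2 highest and 2 lowest fold changes at a mean of at least 5 RPKM, of which some are printed, and the 8 genes most alike in deviation. Dusp14, Dusp16, Nab1, Nab2, Spry1, Ptgs2, Cebpd (between the white depots), Crtc1, Map2k7 and Rps6ka5 were named after their values were seen. Alternatives used DESeq2 1.42.0 and limma 3.58.1, other factors, filters, eWAT transcripts, row lengths and left-out samples. Python 3.11.15, pandas 2.3.3 and scipy 1.17.1 were used.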

Additional observations from a re-analysis of the deposited data

Results flagged for a closer look

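Of the 30 sets of 6 values (10 genes in 3 depots), 3 held a sample far from the 5 others in RPKM. All were BAT samples. The rule used sets the gap to the next value against the range. It flags about 1 in 20 sets if values are normally distributed and sets are independent. BAT values were skewed and went together between genes, so the 3 flags cannot be compared with that rate. The rule was not applied on a log scale. Egr2 had 2.95 RPKM in BAT mouse 7, and the others lay between 0.0758 and 0.242. Egr3 had 2.70 RPKM in the same sample, and the others lay between 0.0522 and 0.284. Nr4a3 had 3.56 RPKM in BAT mouse 11, and the others lay between 0.231 and 1.37. BAT mouse 7 had the lowest summed RPKM of skeletal muscle markers of the BAT samples (0.550) and the highest adipocyte marker score, and their part in these values was not tested.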

How the results depend on the processing

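Over all alternatives tried, 802 of 836 values of single genes kept their direction and their side of the threshold or stayed uncalled, 22 gained a call, 8 lost it and 4 turned. Nr4a2 between eWAT and BAT turned from -0.05 to 0.73 and 0.57 with limma on log2(RPKM + 0.1) and log2(RPKM + 1), where the median of all genes was itself 0.71 and 0.42, and to 0.90 with all eWAT transcripts summed, which counts reads more than once. Dusp1 between iWAT and eWAT turned to 1.09 with the eWAT transcript of highest mean RPKM, a short one, and with that transcript the uncalled values of Egr3 and Ier3 became 0.30 and -0.20. Using only rows identical in both kinds of file leaves 5733 genes and, of the 10, Nr4a1 alone: 3590, 3888 and 737 genes were called between iWAT and BAT, eWAT and BAT, and iWAT and eWAT, in place of 13337, 12916 and 4714, and 1, 1 and 0 of the 10. Asking for at least a 2-fold change gave 6345, 7154 and 1969 genes and, between iWAT and eWAT, 1 of the 10. Between iWAT and eWAT the counts rest on how eWAT rows are read. They were 9642 and 9492 genes and 4 and 4 of the 10 with limma (pseudocount 0.1 and 1), 9665 genes with row length as an offset, 10523 with the transcript of highest RPKM, and 13584 genes and 5 of the 10 with all transcripts summed. With the offset 10.6% of these calls were higher in iWAT, in place of 52.2%. Leaving out single samples gave 12307 to 13291 genes and 6 to 8 of the 10 between iWAT and BAT (Egr4 could not be tested with 5 iWAT samples), 12087 to 13030 genes and 9 of the 10 in every case between eWAT and BAT, and 3883 to 5156 genes and 1 to 3 of the 10 between iWAT and eWAT (1 without iWAT mouse 15). Of the numbers in the titles, 4, 4 and 5 are shared between iWAT and BAT, eWAT and BAT, and iWAT and eWAT, and deviations of same-numbered samples had mean correlations of 0.04, -0.03 and -0.09 (over 0.1 in 1, 0 and 1 of these pairs), so that the data do not show a pairing. With this number as a replicate block 8, 9 and 2 of the 10 were called. It added Egr3 between iWAT and BAT (2.80, adjusted p = 0.0206) and changed no other call of the 10. Egr3 between eWAT and BAT was lost with the transcript of highest RPKM (1.57, adjusted p = 0.0588). The causes of these changes were not tested. With 3 reads as the least that can be told from 0, Egr4 in BAT is at the limit of the depth.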
